A study of Mus musculus with 29 samples.

Results

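The genes described here are those whose symbol starts with Kcn, the root shared by the mouse genes for potassium channel subunits, with a mean of at least 1 CPM (counts per 1000000 gene counts of the library) over 28 libraries of mouse hypothalamus. Of 98 such rows among 24499 gene symbols, 81 passed, of which 78 are protein-coding and 3 (Kcnd3os, Kcnmb4os2 and Kcnq1ot1) are non-coding. The other 17 stayed below the minimum. The members nearest above it were Kcnd3os (1.005 CPM), Kcnk5 (1.166 CPM) and Kcng3 (1.274 CPM), and those nearest below it were Kcnrg (0.826 CPM), Kcnq1 (0.803 CPM) and Kcnn4 (0.761 CPM). The 17 rows below the minimum included Kcnmb4, at a mean between 0.566 and 0.733 CPM at every age. It encodes an auxiliary subunit of the large-conductance calcium-activated channel. Kcnmb4 shares 20.8% of its exon bases with Kcnmb4os2 and 10.7% with Kcnmb4os1, both counted and on the opposite strand. Kcnmb4os2 shares 34.2% of its own with Kcnmb4. Whether reads were assigned by strand is unknown, and the effect of these overlaps on the levels and calls was not tested.

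Potassium channels let potassium ions cross the cell membrane, which brings a neuron back to rest after an action potential and sets how readily it fires. They fall into voltage-gated channels (the Kcna to Kcnd, Kcnh and Kcnq families, with silent partners in Kcnf, Kcng, Kcns and Kcnv), inward rectifiers (Kcnj), two-pore leak channels (Kcnk) and calcium- or sodium-activated channels (Kcnma, Kcnn and Kcnt). Auxiliary proteins (Kcnab, Kcnip, Kcne and Kcnmb) bind the pore subunits and alter their traffic and gating. In glia, inward rectifiers take up the potassium that active neurons release.

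The RNA came from the hypothalamus of C57BL/6 wild-type mice, labelled male, and was read by paired-end RNA sequencing. The mice lived alone in a cage, in 12 h of light and 12 h of dark with free food and water, and were killed about 6 h after lights on. The 9 ages were postnatal day 5 (P5, 3 libraries), 3 weeks (3), 4 weeks (4), 5 weeks (4), 2, 6, 12 and 18 months (3 each) and 24 months (2 used of 3 deposited). No group carried a transgene or a drug treatment. Libraries were numbered as replicates, but the labels do not say that each is a different mouse, so p-values reflect how these libraries vary, which may be technical.

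Depth was 24661631 to 39783779 gene counts per library, so that 3 counts made 0.0754 to 0.122 CPM. The third 24-month library was left out because it held 2377580 counts in 1385 genes. Against the label, P5 replicates 1 and 2 held 746 and 791 CPM of Xist, which coats an inactive X chromosome, and P5 replicate 3 held 0.223 CPM. The 16 hypothalamus markers summed to 97 to 238 CPM in the 2-month libraries, below the 254 to 1682 CPM at every other age. The 10 thalamus markers summed to 1288 to 1622 CPM at 2 months and to 564 to 1785 CPM over the other ages. How much thalamus each library held was not tested. Counts of calls at 3 weeks against P5 are also given with P5 replicate 3 alone, and the test over ages and the adult slope are also given without the 2-month libraries. In tissue RNA, fewer cells of a type and less RNA per cell cannot be told apart.

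Sequence before the transcription start is shown for 4 members on which the results below turn. These are the neighbours Kcnj9 and Kcnj10, which rose together after P5, and Kcnj13 and Kcne2, highest in libraries rich in a choroid plexus marker. Each line gives the 250 bases before a start listed by RefSeq (GRCm38.p6), 5′ to 3′ on the gene's strand. Capitals mark 3 motifs on either strand, which do not overlap in these windows. The GC box was searched as the letters GGGCGG. The CAAT box was searched in its usual form, spelled CCAAT. The TATA box was searched as the letters TATAAA.
Kcnj9, chr1:172329323-172329572, - strand: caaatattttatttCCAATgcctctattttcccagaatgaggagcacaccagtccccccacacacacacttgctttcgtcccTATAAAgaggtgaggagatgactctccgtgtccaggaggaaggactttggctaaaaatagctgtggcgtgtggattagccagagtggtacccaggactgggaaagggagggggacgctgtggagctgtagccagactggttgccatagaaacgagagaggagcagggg
Kcnj10, chr1:172340960-172341209, + strand: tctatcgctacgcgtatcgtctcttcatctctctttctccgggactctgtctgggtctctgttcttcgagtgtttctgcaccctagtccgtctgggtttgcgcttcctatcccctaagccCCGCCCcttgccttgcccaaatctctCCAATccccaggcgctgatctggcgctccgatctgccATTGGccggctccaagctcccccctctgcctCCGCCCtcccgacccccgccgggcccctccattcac
Kcnj13, chr1:87394730-87394979, - strand: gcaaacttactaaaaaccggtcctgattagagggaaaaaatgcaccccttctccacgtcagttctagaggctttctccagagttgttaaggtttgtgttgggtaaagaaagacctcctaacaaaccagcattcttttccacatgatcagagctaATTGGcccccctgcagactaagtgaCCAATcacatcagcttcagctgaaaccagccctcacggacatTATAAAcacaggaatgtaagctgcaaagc
Kcne2, chr16:92292139-92292388, + strand: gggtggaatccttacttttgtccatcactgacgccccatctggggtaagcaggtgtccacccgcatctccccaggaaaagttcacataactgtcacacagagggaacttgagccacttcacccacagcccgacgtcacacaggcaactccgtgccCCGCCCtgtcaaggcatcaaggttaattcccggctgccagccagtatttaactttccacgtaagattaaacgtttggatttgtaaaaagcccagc

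Kcnj9 and Kcnj10 stand back to back on chromosome 1 (chr1:172320501-172374085 spans both, GRCm38), with 11.9 kb between them. In the window before its start, Kcnj10 holds 17 CpG pairs and Kcnj9 holds 5. A TATAAA lies in the windows of Kcnj9 and Kcnj13, the only 2 of the 59 members with a listed start that hold one (3.39%, against 13% of 27025 genes). GGGCGG was found in 52.5% of member windows and 32.9% of all, and CCAAT in 32.2% and 34.5%. The cAMP response element, TGACGTCA, was in none of the member windows and in 1.62% of all. These counts describe letters in a window and were not tested.

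The summed level of the 81 genes was 2847, 2578 and 2816 CPM in the P5 libraries and 4572, 4303 and 4735 CPM at 3 weeks. It was highest at 2 months (5275 ± 62.6 CPM, SD, n = 3) and lay between 4186 and 4231 CPM on average at 12 to 24 months. The F-test of edgeR over the 9 ages called 61 of 81 members at an adjusted p below 0.05 (75.3%), where 76.8% of all 16916 genes tested were called, so the members' share was near that of all genes. Without P5 the count was 37 (45.7%, against 43.2% of all genes), and without P5 and 2 months it was 26 (32.1%, against 40.7%). P5 was the age of lowest mean for 38 members (46.9%, against 35.1% of all genes) and of highest mean for 22 (27.2%, against 34%).

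The members differed widely in how far their level moved. Between their highest and lowest age mean, 43 of 81 differed by 2-fold or more and 16 by 4-fold or more. The same counts were not made over all genes, so they do not set the members apart. The 16 include Kcne2 and Kcnj13, which are described below with a choroid plexus marker. The 3 with the smallest ratio were Kcna4, Kcna6 and Kcnj14. Kcna6, a voltage-gated channel of the Shaker family, had means of 149 to 166 CPM over the 9 ages (adjusted p = 0.784). Kcnma1, the pore of the large-conductance calcium-activated channel, had means of 67.6 to 84.9 CPM (adjusted p = 0.847), and its 2-month libraries ranged from 39.2 to 82 CPM.

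**Figure D1:**
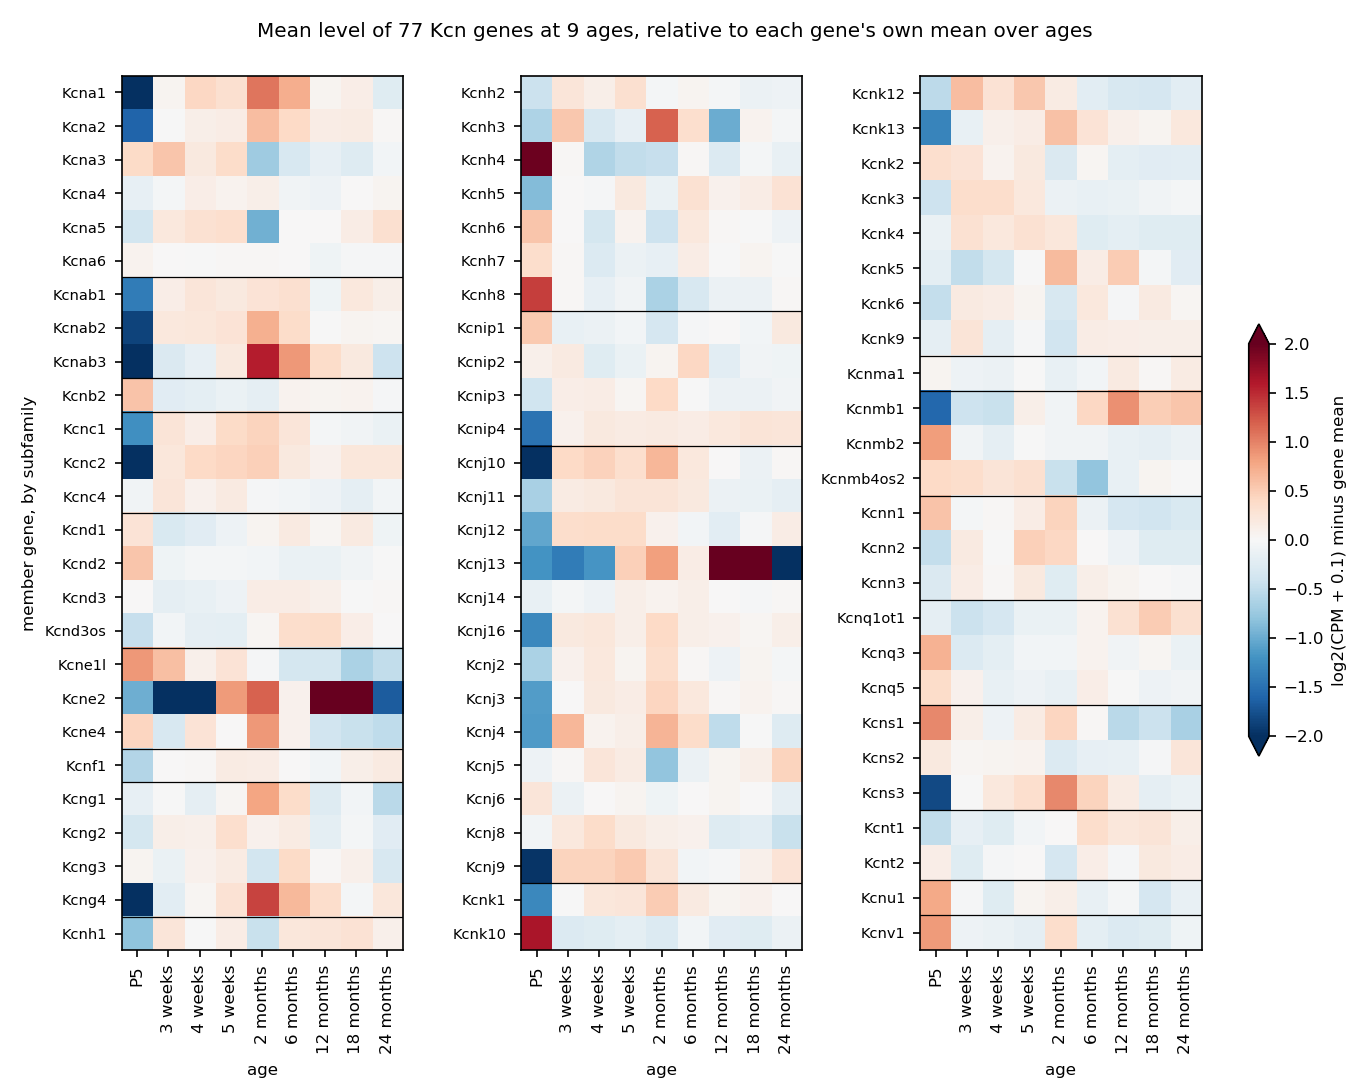
Mean level of 77 members (rows, by subfamily, black lines between subfamilies) at the 9 ages (columns), as log2(CPM + 0.1) minus the gene's mean over ages, with colours limited at 2 in either direction. The P5 column is blue for Kcna1, Kcnab2, Kcnc2, Kcnj9 and Kcnj10 and red for Kcnh4, Kcnh8 and Kcnk10, and the rows of Kcne2 and Kcnj13 vary among later ages.

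Levels between genes were compared per kilobase of exon. At P5 the highest mean levels were those of Kcnd2 (28.7 CPM per kb), Kcna6 (27.9), Kcnc4 (26.6) and Kcnh2 (18.2). At 3 weeks the order was led by Kcnj10 (87.5 CPM per kb), Kcnab2 (57.6), Kcnc1 (38.5) and Kcnj9 (37.3), and Kcnd2 stood at 18.4. At 6 months Kcnj10 (76.6) and Kcnab2 (64.5) led again, followed by Kcnc1 (38.2). Exon lengths are from GENCODE M21. Of their exon bases, Kcna6 shares 39.6% and Kcnj3 31.1% with a gene on the opposite strand, and the strand setting of the counts is not given in the sources used here.

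The first question was how these genes changed between the first postnatal week and weaning. From P5 to 3 weeks, 35 members rose and 16 fell (edgeR, adjusted p below 0.05), where 29.8% of all genes rose and 29.3% fell. The risen members made 43.2% of the 81 and the fallen ones 19.8%, and the median log2 fold change was 0.32 for the members against -0.01 for all genes. Markers of other cell types and brain regions moved in the same comparison. The 12 oligodendrocyte markers summed to 326 to 455 CPM at P5 and to 21024 to 26289 CPM at 3 weeks, with 12 of 12 called higher. Of 11 astrocyte markers, 9 rose and 1 fell (summed 1828 to 1919 CPM, then 3732 to 3962 CPM). All 10 microglia markers rose (148 to 158 CPM, then 317 to 359 CPM), whereas 4 of 12 neuron markers rose and 5 fell (8829 to 9845 CPM, then 8078 to 8630 CPM). Of 9 endothelial markers 6 rose and none fell (177 to 188 CPM, then 339 to 360 CPM). Of 10 thalamus markers 7 rose and 1 fell (564 to 953 CPM, then 787 to 1410 CPM). Of 16 hypothalamus markers 6 rose and 1 fell (254 to 377 CPM, then 663 to 1148 CPM). Pericyte and smooth muscle markers, 9 in number, rose in 5 cases and fell in 2, and 3 of 9 tested midbrain and hindbrain markers fell. Opalin, an oligodendrocyte marker, was at 0 in at least 1 library. The part of these shifts in the members' changes was not tested.

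Among the Shaker channels (Kcna), 3 of 6 members rose and none fell. Kcna1, a low-threshold channel of axons (chr6:126640397-126646384), was at 23.2, 10.4 and 18.7 CPM in the P5 libraries and at 114, 82.2 and 121 CPM at 3 weeks. The libraries of both ages did not overlap, and the log2 fold change was 2.61 ± 0.26 (SE, adjusted p = 1.24e-08). Non-overlap between ages, here and below, was not counted over all genes. Kcna2, which forms axonal channels with Kcna1, went from 80.9, 65.7 and 88.2 CPM to 249, 204 and 256 CPM (1.59 ± 0.15, adjusted p = 4.56e-09). Kcna5 rose by less (0.58 ± 0.19, adjusted p = 0.00941). Kcna6 lies 61.9 kb from Kcna1 on the same chromosome and was at 151 to 174 CPM at P5 and 158 to 160 CPM at 3 weeks (-0.06 ± 0.08, adjusted p = 0.533). Kcna3 (0.17 ± 0.28) and Kcna4 (0.11 ± 0.13) were not called.

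All 3 beta subunits of the Shaker channels (Kcnab) rose together with Kcna1 and Kcna2. Kcnab2 was at 82.6, 69.6 and 79.3 CPM at P5 and at 330, 286 and 349 CPM at 3 weeks, a log2 fold change of 2.06 ± 0.15 (adjusted p = 3.18e-11). Kcnab3 went from 6.22, 4.05 and 5.17 CPM to 20.9, 18.6 and 25.5 CPM (2.08 ± 0.22). Kcnab1 went from a mean of 23.5 ± 4.54 to 68.3 ± 18.7 CPM (SD, n = 3 each). In each of these genes the lowest 3-week library was above the highest P5 library.

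The Kcnc genes encode the high-threshold channels of fast-firing neurons, and Kcnc1, Kcnc2 and Kcnc4 rose. Kcnc2 was at 37, 27.8 and 32.6 CPM at P5 and at 192, 133 and 228 CPM at 3 weeks (2.51 ± 0.20, adjusted p = 1.58e-10). Kcnc1 went from 134, 128 and 129 CPM to 326, 407 and 358 CPM (1.48 ± 0.12). Kcnc4 rose by less (0.32 ± 0.13, adjusted p = 0.0442), and its call was lost with P5 replicate 3 as the sole P5 library (adjusted p = 0.394).

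The 3 coding Kcnd genes, which form transient A-type channels, all fell. Kcnd2 was at 153, 132 and 159 CPM at P5 and at 102, 79.8 and 103 CPM at 3 weeks, with no overlap (-0.64 ± 0.14, adjusted p = 0.000266). Kcnd1, an X-linked gene, fell by 0.58 ± 0.12 on the log2 scale, and its call held with P5 replicate 3 alone. Kcnd3 fell by 0.20 ± 0.08 (adjusted p = 0.0313), from 103 ± 6.98 to 89.7 ± 3.96 CPM. The antisense transcript Kcnd3os shares 165 exon bases with Kcnd3 and was not called (adjusted p = 0.258).

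Of the 4 Kcnip genes, whose calcium-binding products join the Kcnd channels, 2 rose and 1 fell. Kcnip4 went from 20.5, 21.4 and 23.7 CPM to 65.8, 60 and 67.2 CPM (1.55 ± 0.12, adjusted p = 3.65e-11), while Kcnip1 fell from 75.3, 86.8 and 76.5 CPM to 50.2, 54.4 and 44.8 CPM (-0.68 ± 0.12). Kcnip3, also known as a calcium-dependent repressor of transcription, rose from 64.2 ± 4.49 to 92.8 ± 6.58 CPM (0.53 ± 0.13). Kcnip2 was not called (0.08 ± 0.39).

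Kcnb2, a delayed rectifier, fell from 12.6, 12 and 12.7 CPM to 8.24, 6.14 and 6.93 CPM (-0.81 ± 0.21). The silent subunits, which carry no current alone and combine with Kcnb channels, moved in both directions. Kcng4 rose from 0.435, 3.28 and 4.13 CPM to 14.8, 10.8 and 17.9 CPM (2.44 ± 0.44), Kcns3 rose from 1.33 ± 0.254 to 4.83 ± 1.17 CPM (1.87 ± 0.26), and Kcnf1 rose by 0.59 ± 0.14. Kcns1 fell from 11.1 ± 0.117 to 6.14 ± 1.07 CPM (-0.85 ± 0.25) and Kcnv1 fell from 13.1 ± 0.808 to 6.68 ± 2.89 CPM (-0.97 ± 0.35, adjusted p = 0.0222). The Kcnv1 call was lost with P5 replicate 3 alone (adjusted p = 0.166). Kcng1, Kcng2, Kcng3, Kcns2 and the 3 accessory Kcne members were not called.

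Of 8 Kcnh genes, which form the eag, erg and elk channels, 3 rose and 3 fell. Kcnh4, of the elk group, was at 14.8, 11.6 and 10 CPM at P5 and at 4.51, 3.29 and 1.43 CPM at 3 weeks (-1.98 ± 0.41, adjusted p = 0.000214). Kcnh8, also an elk channel, went from 10.5, 8.37 and 9.83 CPM to 4.12, 3.5 and 3.39 CPM (-1.38 ± 0.20). The third elk gene, Kcnh3, was not called (1.19 ± 0.84, adjusted p = 0.233). Both eag genes rose, Kcnh1 by 1.05 ± 0.20 and Kcnh5 by 0.89 ± 0.24 on the log2 scale. In the erg group, Kcnh2 rose from 88 ± 9.45 to 140 ± 14.6 CPM (0.67 ± 0.09), Kcnh6 fell by 0.57 ± 0.19, and Kcnh7 was not called (-0.33 ± 0.27, adjusted p = 0.299). With P5 replicate 3 alone, Kcnh5 was no longer called (adjusted p = 0.0705).

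Of 13 Kcnj members, the inward rectifiers, 8 rose and none fell, and their summed level went from 262 ± 19.6 to 907 ± 70.9 CPM. Kcnj10, the main inward rectifier of astrocytes and oligodendrocytes (chr1:172341210-172374085), was at 96.8, 76.1 and 98.6 CPM at P5 and at 456, 447 and 516 CPM at 3 weeks. Its log2 fold change was 2.39 ± 0.11, with the smallest adjusted p of the members (3.94e-15). Kcnj16, which pairs with Kcnj10 in glia, went from 17.4, 19.1 and 18.1 CPM to 51.3, 51.9 and 49.9 CPM (1.49 ± 0.11). Kcnj2, whose gene lies 38.2 kb from Kcnj16, rose by 0.73 ± 0.14.

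Kcnj9, a subunit of the G-protein-gated rectifiers that neurotransmitter receptors open, rose as far as its neighbour Kcnj10. It was at 30.5, 26.5 and 33.4 CPM at P5 and at 158, 141 and 181 CPM at 3 weeks (2.41 ± 0.16, adjusted p = 6.57e-12). Of the other G-protein-gated subunits, Kcnj3 rose from 35.7, 31.8 and 34.2 CPM to 72.8, 66.6 and 83.3 CPM (1.13 ± 0.14). Neither Kcnj5 (0.13 ± 0.16, adjusted p = 0.492) nor Kcnj6 (-0.35 ± 0.18, adjusted p = 0.0986) was called. Kcnj11, the pore of neuronal ATP-sensitive channels, rose from 19.8 ± 1.68 to 34.7 ± 0.484 CPM (0.81 ± 0.09), and Kcnj8, its vascular counterpart, was not called (0.28 ± 0.14, adjusted p = 0.0871). Kcnj12, a strong inward rectifier, rose by 1.40 ± 0.20, while Kcnj13 and Kcnj14 were not called.

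Among the two-pore leak channels, 5 of 10 members rose and 1 fell. The fall was that of Kcnk10, a leak channel opened by stretch and lipids (chr12:98429437-98578310). It was at 47.9, 37.2 and 42.1 CPM at P5 and at 10.8, 11.4 and 11.6 CPM at 3 weeks, with a log2 fold change of -1.91 ± 0.13 (adjusted p = 4.43e-12). Its later age means were all between 11.3 and 13.1 CPM. The closely related Kcnk2 was at 75.5, 81.4 and 68.7 CPM and then at 72.8, 80.3 and 62.4 CPM, with overlapping libraries (-0.07 ± 0.11, adjusted p = 0.615).

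Kcnk1 rose from 29.5, 26.2 and 28.5 CPM to 70.8, 60.1 and 74.4 CPM (1.29 ± 0.12). Kcnk12 (1.16 ± 0.15) and Kcnk13 (1.17 ± 0.13), a pair of halothane-inhibited channels, also rose. Kcnk3, an acid-sensitive leak channel, rose from 28.4 ± 5.13 to 48 ± 4.87 CPM (0.76 ± 0.13). Kcnk6 rose by 0.68 ± 0.22, but not with P5 replicate 3 alone (adjusted p = 0.104). Besides Kcnk2, the members Kcnk4, Kcnk5 and Kcnk9 were not called.

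Among the calcium-activated channels, in the small-conductance family, Kcnn2 rose by 0.66 ± 0.12 and Kcnn3 by 0.45 ± 0.13, and Kcnn1 fell by 0.61 ± 0.16 on the log2 scale. Kcnn3 was not called with P5 replicate 3 alone (adjusted p = 0.126). Kcnma1 was not called (-0.15 ± 0.23, adjusted p = 0.597), nor was Kcnmb4 (-0.12 ± 0.39, adjusted p = 0.806), a row below the minimum. Of the auxiliary subunits, Kcnmb2 fell from 9.21 ± 1.35 to 4.84 ± 1.13 CPM and Kcnmb1 rose from 0.87 ± 0.241 to 2.08 ± 0.224 CPM. Kcnmb1 overlaps the gene span of Kcnip1 on chromosome 11.

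Kcnq3 is a subunit of the M-current channel that restrains repeated firing. It was at 57.8, 42.4 and 59.5 CPM at P5 and at 31.1, 20.6 and 29.8 CPM at 3 weeks (-0.97 ± 0.20, adjusted p = 0.000294). Kcnq5 was not called (-0.30 ± 0.14, adjusted p = 0.0798). Kcnu1, a channel known from sperm, fell from 4.47 ± 0.525 to 2.56 ± 0.366 CPM. Of the sodium-activated channels, neither Kcnt1 (0.34 ± 0.20, adjusted p = 0.142) nor Kcnt2 was called, and neither were the non-coding Kcnq1ot1 and Kcnmb4os2.

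**Figure D2:**
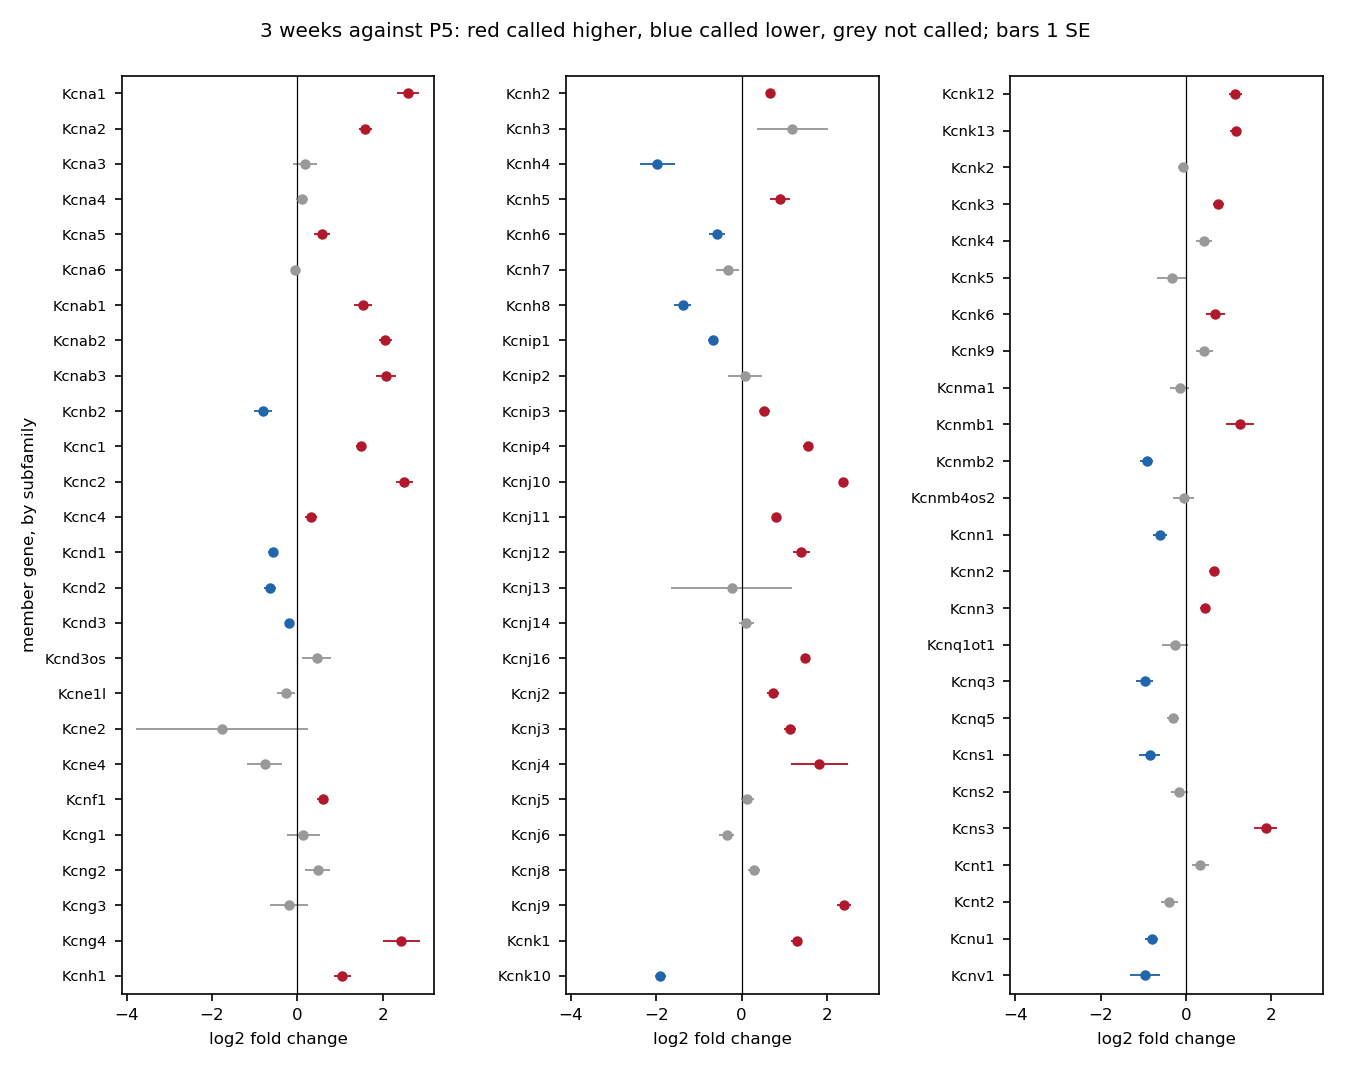
Log2 fold change of 77 members at 3 weeks against P5 (points) with its SE (bars), by subfamily. Red points were called higher, blue ones lower and grey ones not called. All Kcnab points are red and no Kcnj point is blue.

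With P5 replicate 3 as the sole P5 library, 31 members rose and 14 fell. That fit assumes that the lone library varies like the others. The share of all genes called in it was not taken, so its counts cannot be set beside all genes. Leaving out each P5 or 3-week library in turn gave 33 to 35 risen and 13 to 16 fallen members. Of the 51 calls, 7 were lost without some library, among them those of Kcna5, Kcnc4, Kcnd3, Kcnh6, Kcnj4 and Kcnv1.

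A further 32 genes for proteins known to bind or anchor potassium channels, together with the related Hcn genes for hyperpolarization-activated cation channels, were followed as partners. Of 31 tested, 12 rose (38.7%, against 29.8% of all genes) and 8 fell (25.8%, against 29.3%) from P5 to 3 weeks, with a median log2 fold change of 0.14. With P5 replicate 3 alone, an alternative chosen after seeing the data, 9 rose and 4 fell. Amigo1, which binds Kcnb channels, went from 65.1 to 136 CPM (1.06 ± 0.06). Hcn2 went from 79.1 to 205 CPM (1.37 ± 0.15) and Hcn3 from 87.5 to 52.6 CPM (-0.74 ± 0.11). At the juxtaparanode, where axonal Kcna channels cluster, Cntn2 rose (0.59 ± 0.08) and Cntnap2 fell (-0.53 ± 0.10). The Kcnd partners Dpp6 (0.14 ± 0.06, adjusted p = 0.0584) and Dpp10 (0.16 ± 0.11) were not called. Abcc9, the sulfonylurea receptor of vascular channels, fell (-0.54 ± 0.15) but was not called with P5 replicate 3 alone, and its neuronal counterpart Abcc8 was not called (-0.08 ± 0.13).

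Between 3 and 5 weeks, the weeks around puberty, no member was called by edgeR, and DESeq2 called none either. Of all genes 2.15% were called, 0.698% higher and 1.45% lower. At an unadjusted p below 0.05 there were 5 of 81 members, against 11.7% of all genes. The median log2 fold change of the members was 0.08, against 0.001 for all genes. One partner, Cntn2, rose (0.48 ± 0.08, adjusted p = 0.000728). The libraries also split by Rn7s2 and Bpifa2, genes outside the members. Rn7s2 was at 1.44 to 2.11 CPM at 3 weeks and 24.2 to 29.6 CPM at 5 weeks. Bpifa2 was at 34 to 47 CPM and then at 0. At 4 weeks Rn7s2 was at 1.7 to 2.1 CPM in replicates 1 and 2 and 21.7 to 28.9 CPM in replicates 3 and 4. With this split as a term in the fit, no member was called. From the 3- and 5-week libraries alone, the split and age cannot be told apart.

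**Figure D3:**
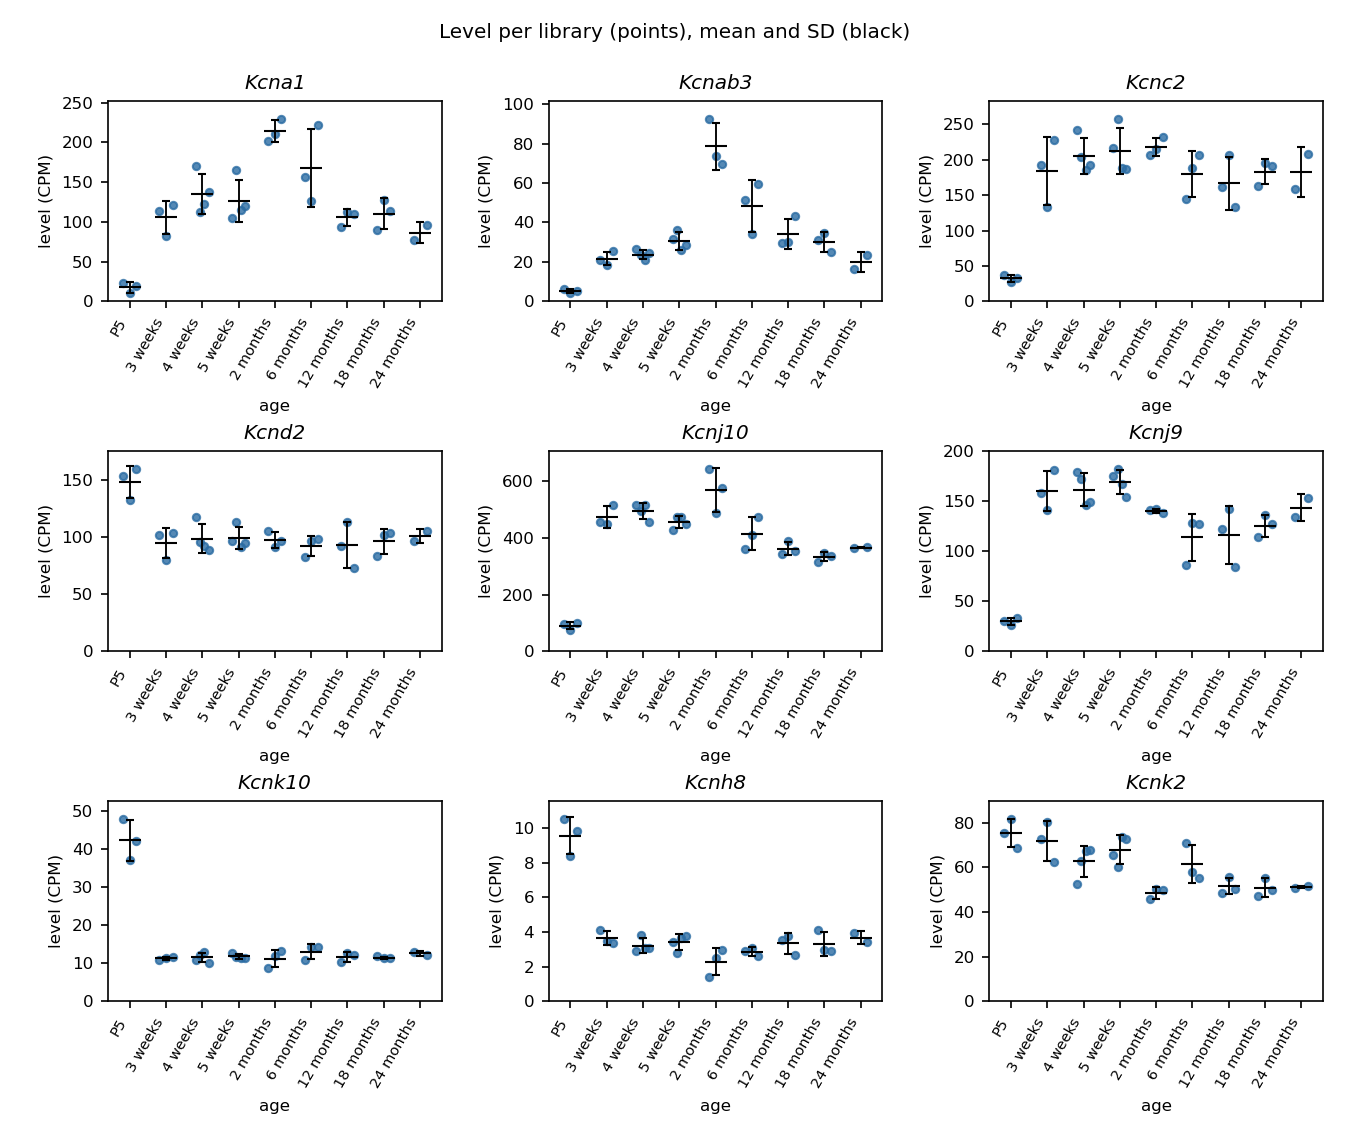
Level in CPM (vertical axes from 0) of 9 members in each of 28 libraries (points) by age, with the mean and SD of each age in black. Kcna1, Kcnc2, Kcnj9 and Kcnj10 step up after P5, Kcnd2, Kcnh8 and Kcnk10 step down and Kcnab3 is highest at 2 months.

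The step to adulthood was read at 2 and at 6 months against 5 weeks. At 2 months 12 members were higher and 9 lower, where 7.13% of all genes were higher and 9.43% lower. The members' shares were 14.8% and 11.1%. The hypothalamus markers moved with this comparison: 15 of 16 were lower at 2 months. Their sum went from 663 to 1071 CPM at 5 weeks to 97 to 238 CPM. Of 10 thalamus markers 1 was higher and 1 lower (1174 to 1698 CPM, then 1288 to 1622 CPM). The 12 midbrain and hindbrain markers went from 8.91 to 15.6 CPM to 43 to 69.2 CPM, with 6 of them at 0 in at least 1 library of the study. The part of tissue content in the members' values was not tested. Rn7s2, named above, was at 24.2 to 29.6 CPM at 5 weeks and at 0.175 to 1.78 CPM at 2 and 6 months. In the comparisons of 2 and 6 months with 5 weeks, any effect of this split cannot be told apart from age.

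Higher at 2 months were the axonal Kcna1 and Kcna2 with their beta subunits Kcnab2 and Kcnab3. Kcnab3 was at 31.5, 36.1, 25.8 and 28.8 CPM at 5 weeks and at 92.3, 73.8 and 69.9 CPM at 2 months (1.37 ± 0.18, adjusted p = 6.71e-05). Kcna1 was at 105 to 165 CPM at 5 weeks and at 202, 211 and 229 CPM at 2 months (0.76 ± 0.22, adjusted p = 0.0215). In Kcnab3 and Kcna1 every 2-month library was above every 5-week library.

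Kcng4 was at 17.4 to 25.8 CPM at 5 weeks and at 46.7, 41.3 and 41.1 CPM at 2 months (1.06 ± 0.35, adjusted p = 0.0406). Also higher were Kcnd3, Kcnip3, Kcnj10, Kcnj16, Kcnk13 and Kcns3, with log2 fold changes of 0.24 to 0.64. Kcnj10 went from 427 to 473 CPM over the 5-week libraries to 641, 489 and 576 CPM (0.32 ± 0.10, adjusted p = 0.0247).

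Among the lower members were Kcna5, Kcna3 and Kcnj5. Kcna5 was at 17.7, 14.4, 18.4 and 16.4 CPM at 5 weeks and at 5.98, 6.15 and 8.08 CPM at 2 months (-1.32 ± 0.18, adjusted p = 8.16e-05). Kcnj5, a G-protein-gated subunit, went from 10.4 to 14 CPM to 5.47, 6.63 and 7.04 CPM (-0.96 ± 0.15). Kcna3 went from 31.1, 26.7, 34.7 and 27.4 CPM to 5.62, 17 and 19.6 CPM (-1.09 ± 0.27). In these 3 genes as well the libraries of both ages did not overlap. The genes were picked by their calls, and the share of all genes without overlap was not counted.

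Kcnk2 was lower by 0.48 ± 0.10 and Kcnh2 by 0.37 ± 0.08 on the log2 scale, and Kcnh1, Kcnh8, Kcnn3 and Kcnmb4os2 were lower too. In all, 14 of the 21 calls were lost when 1 library was left out. Of the genes above, these included Kcna1, Kcna2, Kcnab2, Kcng4 and Kcnj10, but not Kcnab3, Kcna5, Kcna3, Kcnj5, Kcnk2 or Kcnh2. Leaving out 5-week replicate 1, 3 or 4 left 3, 4 and 4 higher members, and leaving out 2-month replicate 11 or 13 left 5 and 7.

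At 6 months 2 members were higher and 7 lower than at 5 weeks, with 4.58% and 8.39% of all genes. The 6-month libraries held 443 to 599 CPM of summed hypothalamus markers, with 1 of 16 called lower. Oligodendrocyte markers were lower in 8 of 12 cases, with a sum of 14816 to 19588 CPM at 5 weeks and 9115 to 13083 CPM at 6 months. Of 9 midbrain and hindbrain markers tested 6 were higher, and the 12 of that list summed to 8.91 to 15.6 CPM and then to 10 to 84 CPM. The part of these lists in the members' values was not tested. Kcnab3 was higher at this age as well, at 51.6, 33.9 and 59.6 CPM with 2 of 3 libraries above the highest of 5 weeks (0.66 ± 0.18, adjusted p = 0.02). So was Kcnd3 (0.24 ± 0.07). As both comparisons share the 5-week libraries, the values are not independent.

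Kcnk12 was at 27.6, 29.3, 28.2 and 23.2 CPM at 5 weeks and at 15.3, 14.6 and 18.7 CPM at 6 months (-0.74 ± 0.14, adjusted p = 0.00149). Kcnj9 went from 154 to 182 CPM to 86.7, 128 and 127 CPM (-0.57 ± 0.14, adjusted p = 0.01). Kcnn2, a small-conductance channel that shapes the pause after a spike, went from 40.8, 37.4, 38.1 and 33.6 CPM to 24.5, 26.2 and 31.1 CPM (-0.46 ± 0.12). In these 3 genes, picked by their calls, the libraries of both ages did not overlap. The share of all genes without overlap was not counted. Kcnh2, Kcnk3, Kcnk4 and the antisense transcript Kcnmb4os2 were lower as well. Kcnk12 and Kcnmb4os2 kept the call when any single library was left out, unlike the other 7. The part of the exon overlap with Kcnmb4 in the Kcnmb4os2 call was not tested. Without 5-week replicate 1 or 3 there were 4 lower members, and without 6-month replicate 32 or 33 there were 2 and 4. Higher members numbered 0 or 1 without 5-week replicate 1 or 3 or 6-month replicate 32 or 34.

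Later adulthood was read as a slope, the change in log2 level per month, fitted to the 14 libraries aged 2 to 24 months. By this slope 2 members rose and 16 fell, where 7.43% of all 16633 genes were called, 3.08% rising and 4.35% falling. All 12 oligodendrocyte markers fell too, their sum going from 16649 to 23587 CPM at 2 months to 7478 to 9230 CPM at 24 months. Of the pericyte and smooth muscle markers 6 of 9 fell (338 to 378 CPM, then 165 to 230 CPM), and of the astrocyte markers 5 of 11 (3951 to 4973 CPM, then 3542 to 3669 CPM). Endothelial markers fell in 3 of 9 cases, and midbrain and hindbrain markers in 4 of 9 tested, while 3 of 16 hypothalamus markers rose. Their part in the members' slopes was not tested. Rn7s2 was at 59 and 60 CPM at 24 months, against 0 to 5.74 CPM from 2 to 18 months, and its split was not tested either. From 6 to 24 months no member and none of 16553 genes was called. So no call held without the 2-month libraries, which are low in hypothalamus markers. All 18 called members kept the sign of their slope in that smaller fit of 11 libraries, and 14 had an unadjusted p below 0.05. These 11 libraries are among the 14 by which the members were called. At an unadjusted p below 0.05 there were 19 of 81 members from 6 months on, against 9.38% of all genes.

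Kcnab3 had the steepest slope of the called members. It was at 92.3, 73.8 and 69.9 CPM at 2 months, at 29.5, 30 and 43.1 CPM at 12 months and at 16.2 and 23.5 CPM at 24 months. Its level fell by 0.0826 ± 0.0102 log2 per month (adjusted p = 0.00156), and from 6 months on the slope was -0.0654 ± 0.0132 (unadjusted p = 0.000338, adjusted p = 0.197). Kcna1 fell by 0.0578 ± 0.0088 log2 per month, from 214 ± 13.9 CPM at 2 months to 168 ± 49.1 CPM at 6 months and 76.8 and 95.8 CPM at 24 months. The 24-month libraries of these genes lay below all of 2 months.

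Smaller slopes with a call were those of Kcnj10 (-0.0298 ± 0.0068), Kcnj11 (-0.0221 ± 0.005), Kcnc1 (-0.0267 ± 0.0055) and Kcnn2 (-0.0286 ± 0.0058). Kcna2, Kcnab2, Kcne4, Kcng4, Kcnj8, Kcnk1, Kcnn1, Kcns1 and Kcns3 fell as well. Kcna5 (0.0448 ± 0.0106) and Kcnj5 (0.0469 ± 0.0092), both lowest at 2 months, rose. Kcnj5 was at 5.47, 6.63 and 7.04 CPM at 2 months and at 15.5 and 14.7 CPM at 24 months. Without 2-month replicate 12, 2-month replicate 13 or 24-month replicate 2, 1 member rose and 9 fell by the slope. In all, 10 of the 18 calls were lost without some library, those of Kcna2, Kcna5, Kcnab2, Kcng4, Kcnj8, Kcnj10, Kcnj11, Kcnk1, Kcnn1 and Kcns1.

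**Figure D4:**
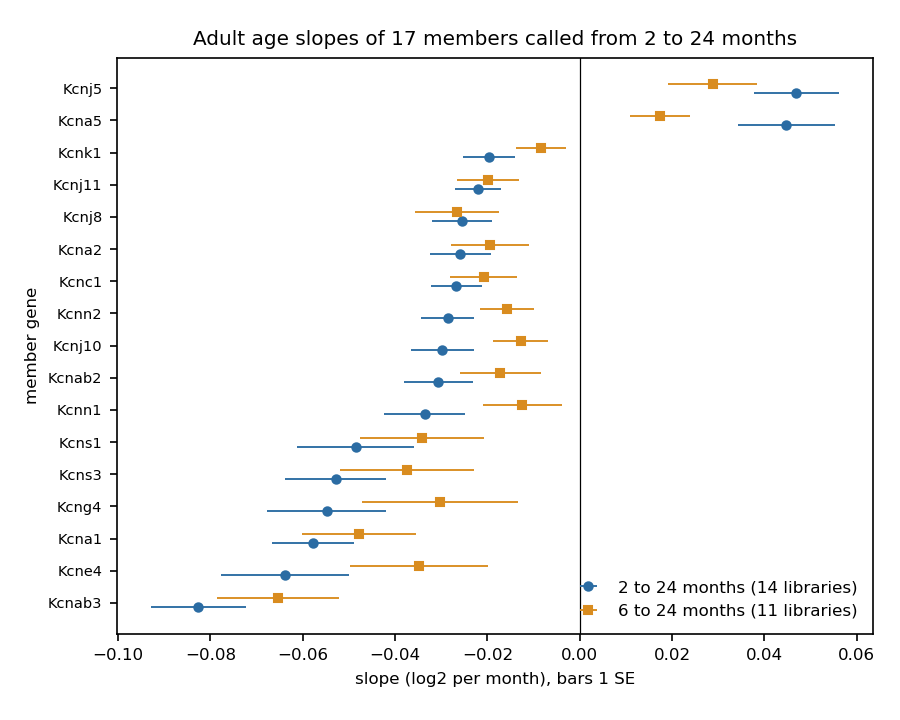
Slope of log2 level per month with its SE for 17 members called from 2 to 24 months (blue circles, 14 libraries) and the same members from 6 to 24 months (orange squares, 11 libraries). The squares rest on 11 of the 14 libraries behind the circles, and no orange slope passes the adjusted threshold.

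A direct comparison of 18 and 24 with 6 and 12 months, 5 against 6 libraries, called no member by edgeR and 1 lower by DESeq2. Without 6-month replicate 33, edgeR called 1 lower. Of all genes 0.0296% were called, and 10 of 81 members had an unadjusted p below 0.05, against 6.54% of all genes. Of the partners, Hcn3 rose by the slope from 2 months and Hcn2, Cntn2, Ank3 and Lrrc38 fell, and none of them was called from 6 to 24 months.

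Beside these shifts, 26 members differed among the ages from 3 weeks on when 2 months was left out. They made 32.1% of the members, below the 40.7% of all genes, and this fit was chosen after seeing the data. Kcnk12 had the smallest adjusted p of them (3.11e-05), with means of 28.8 CPM at 3 weeks, 27.1 CPM at 5 weeks and 14.8 to 16.2 CPM from 6 to 24 months. Kcne1l, an X-linked accessory subunit, had its highest mean at P5 (27.5 ± 3.46 CPM) and its lowest at 18 months (9.65 ± 1.32 CPM), with an adjusted p of 0.000351 in this comparison. Kcnmb1, the accessory subunit known from smooth muscle, was at 2.08 ± 0.224 CPM at 3 weeks and at 5.84, 4.07 and 6.2 CPM at 12 months (adjusted p = 0.00237). Kcnj8 had means of 4.09 to 7.23 CPM (adjusted p = 0.000743).

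Kcnj13 and Kcne2 were highest in the libraries richest in a marker of the choroid plexus. This epithelium makes cerebrospinal fluid, and both genes are known to be expressed in it. Ttr, which encodes the transthyretin that the epithelium secretes, spanned 1.17 to 4547 CPM among the 28 libraries. Where Ttr was highest, in 12-month replicate 28, Kcnj13 was at 30.7 CPM and Kcne2 at 28.4 CPM. In 18-month replicate 14, with 3036 CPM of Ttr, they were at 24.6 and 18 CPM. In P5 replicate 1, where Ttr was lowest, Kcnj13 was at 0.234 CPM and Kcne2 at 0.0669 CPM. Among libraries of lower Ttr the order did not always match. Kcnj13 was at 1.92 CPM in 4-week replicate 3, with 3.66 CPM of Ttr. It was at 0.263 CPM in 6-month replicate 33, with 33.7 CPM of Ttr. Both members passed the test over the 9 ages (adjusted p = 0.0174 and 0.00419), yet libraries of 1 age differed by as much as the ages did. At 12 months Kcnj13 was at 0.781, 13.5 and 30.7 CPM with Ttr at 10.9, 1553 and 4547 CPM. The whole list of 12 choroid plexus markers summed to 307 to 7232 CPM at that age, with Slc4a5 at 0 in at least 1 library of the study. Kcnj13 shares 623 of its 1270 exon bases with Gigyf2 on the opposite strand.

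**Figure D5:**
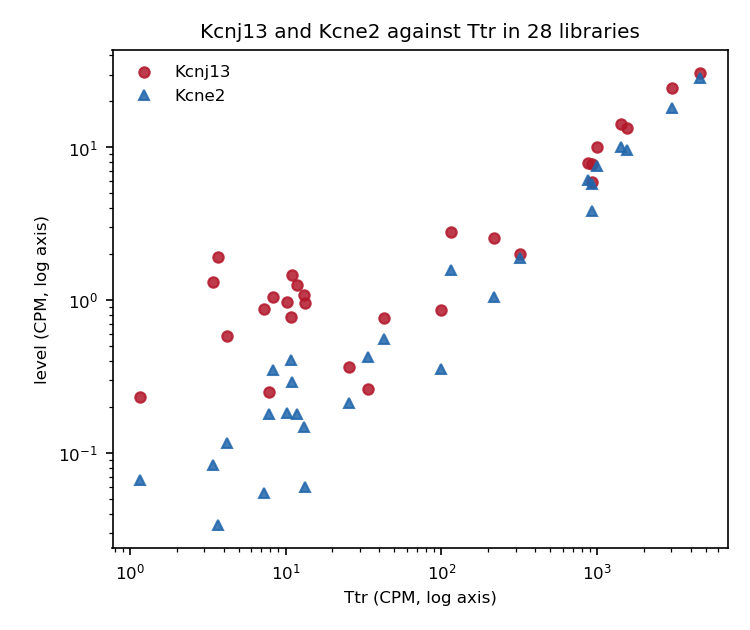
Level of Kcnj13 (red circles) and Kcne2 (blue triangles) in CPM against Ttr in CPM, 1 point per gene in each of 28 libraries, both axes logarithmic. Libraries of high Ttr hold the highest levels of both genes, up to 30.7 and 28.4 CPM.

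Wide differences between libraries of 1 age were found in other members too. Kcnv1 spanned 3.29 to 13.9 CPM at 2 months, and Kcnt1 spanned 71.2 to 120 CPM at 12 months. Described here are 3 such members, not the full list. Kcnh3, Kcnj4 and Kcnip2 were at 21.6, 35.4 and 48.5 CPM in 3-week replicate 1, where 11 striatum markers summed to 891 CPM, the highest of the 28 libraries. The other two 3-week libraries held 3.58 and 3.39 CPM of Kcnh3, with striatum sums of 344 and 303 CPM. In 6-month replicate 32, with a striatum sum of 792 CPM, they were at 16.2, 29.8 and 71.8 CPM. They were also high in 2-month replicate 12 (26.1, 26.9 and 40.8 CPM), where the striatum sum was 315 CPM. Kcnj4, a strong inward rectifier, was called higher at 3 weeks than at P5 (1.83 ± 0.67, adjusted p = 0.0238), and this call was lost without 3-week replicate 1. The part of the dissection in these values was not tested.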

How the data were processed

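RNA of mouse hypothalamus was sequenced in 29 libraries, of which 28 were used. The alignment to mm10 (GRCm38) used HISAT2 2.1.0 and the counting HTSeq 0.9.1, per the submitters' processing notes. The deposited values are raw counts per gene symbol. Their annotation is not given in the sources used here. HTSeq summary lines, 26.1 to 32.5% of each library, were removed.

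CPM in the text are scaled by TMM, and membership used raw totals. After filterByExpr by age, edgeR 4.0.16 ran robust two-sided quasi-likelihood tests with 1 mean per age. A second fit gave the adult slope. Adjusted p-values are Benjamini-Hochberg over all genes tested, and called means below 0.05. Errors are SE for log2 values and SD for CPM. The log2 prior count was 1. Alternatives included DESeq2 1.42.0 and single libraries left out. All 98 rows had a position in GENCODE M21. Simulated counts served to check the tests.

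Of the members, 4 are counted but not reported singly here. The members and lists were chosen with earlier results of these data known. Named genes were up to 8 members called in each direction per comparison (with 5 CPM or more in the higher age), a panel given whatever the result, and called members by subfamily.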

Additional observations from a re-analysis of the deposited data

Results flagged for a closer look

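In the ages with 4 libraries, 10 of 154 groups (77 members at 4 and at 5 weeks) had 1 library set apart from the other 3, its gap to the nearest, as a share of the group's range, being above Dixon's critical value. Chance flags about 1 in 20 groups. In 6 of the 10 the library was 5-week replicate 2, which also held 1430 CPM of the choroid plexus marker Ttr, against 4.2 to 8.33 CPM in the other 5-week libraries. There Kcnj13 was at 14.3 CPM (others 0.251 to 1.05 CPM), Kcne2 at 10 CPM (others 0.117 to 0.349 CPM), Kcna2 at 307 CPM (others 247 to 248 CPM), Kcnk1 at 98.8 CPM (others up to 78 CPM), Kcnj4 at 19.7 CPM (others up to 11.3 CPM) and Kcne4 at 3.36 CPM (others up to 2.18 CPM).

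In the remaining groups at 5 weeks, Kcnk10 was at 12.8 CPM in replicate 1, above 11.5 to 11.7 CPM in the others. At 4 weeks, Kcna4 was at 34.7 CPM in replicate 1, against 28.6 to 29.4 CPM. Kcnj16 was at 60.3 CPM in replicate 3 at that age, against 48.6 to 50.4 CPM. Replicate 2 was low for Kcns3 (4.13 CPM, others 6.08 to 6.29 CPM).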

How the results depend on the processing

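Counts of called members kept within 1.5 times under size-factor scaling in edgeR, and no named gene reversed its direction. Without a filter on low counts, 1 member was higher at 6 months than at 5 weeks. With the libraries of the compared ages alone, 7 were higher at 2 months. DESeq2 called 1 member lower at 18 and 24 months. With all 29 libraries the F-test called 1 member and the adult slope 0 in either direction. The added library held counts in 1385 genes. Only 9 members had a count in it, all among the 11 members on chromosomes 1 and 10. The F-test called 37 members without P5 and, in an alternative chosen after seeing the data, 26 without P5 and 2 months. From 6 to 24 months the slope called 0 higher and 0 lower; the cause was not tested. Leaving out 1 library at a time gave 56 to 65 members by the F-test; 33 to 35 higher and 13 to 16 lower at 3 weeks; 3 to 12 and 6 to 10 at 2 months; 0 to 3 and 2 to 7 at 6 months; 0 and 0 to 1 at 18 and 24 months; 1 to 2 and 9 to 17 by the slope; and 0 at 5 weeks against 3 weeks. A minimum mean of 5 CPM kept 69 members.

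Whether replicate numbers shared between ages pair the libraries was read from each library's deviations from its age mean, correlated between ages. Same-numbered libraries gave 0.042, 0.131 and 0.053 (3 weeks and P5) and -0.125, -0.233 and -0.122 (5 and 3 weeks). Differently numbered ones gave -0.16 to 0.111 and -0.086 to 0.196. No pairing was assumed in the main fit. With the replicate block, 36 members were higher and 19 lower at 3 weeks, and 0 at 5 weeks. Members just above 1 CPM rest on few counts, and the 24-month age on 2 libraries.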
